A study of Mus musculus with 9 samples.

Results

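The MiT/TFE family of transcription factors is made of the genes Mitf, Tfec, Tfeb and Tfe3. These are the 4 genes described here, out of 55274 gene identifiers in the expression tables. They were found by their symbols, each of which named a single identifier, and all 4 were among the 13493 genes that passed the filter on low values, which asked for 1 FPKM or more (a count of fragments divided by transcript length in kilobases and by library size) in 3 or more libraries. Tfec and Tfeb passed it only through the groups where they are high. The family was chosen by these same measurements: the FPKM of Tfec had been seen to be near 0 in NRASG12D cells and high in both other groups. The Tfec difference from NRASG12D cells is therefore given as a description, with no test.

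RNA-seq libraries were compared from 3 groups of 3: NRASG12D cells, NUP98-NSD1 cells and NUP98-NSD1+NRASG12D cells. All were bone marrow cells of female C57BL/6J mice, aged 6 to 8 weeks, that had received 5-fluorouracil at 150 mg/kg 4 days earlier. The cells were kept for 48 h with stem cell factor and the interleukins IL-3 and IL-6, infected with retroviral vectors, sorted for the fluorescent protein of each vector and grown in culture. NRASG12D is a constitutively active RAS protein, carried by the vector with BFP, and NUP98-NSD1 fuses a nucleoporin to a histone methyltransferase, carried by the vector with GFP. Both are driven by the viral promoter of an MSCV vector, so their level is not that of a mutated endogenous gene. The study describes NRASG12D cells grown in this way as mainly mast cells. The labels do not say whether the 3 libraries of a group came from separate mice or cultures, so p-values measure the spread between these libraries, which may be technical.

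MiT/TFE proteins are basic helix-loop-helix leucine zipper factors that bind E-box sequences as homodimers or as heterodimers with each other. TFEB and TFE3 are held in the cytoplasm by mTORC1 phosphorylation when nutrients are plentiful, and in the nucleus they activate lysosomal and autophagy genes through an E-box motif called CLEAR. MITF is required for the development of mast cells, melanocytes and osteoclasts, and TFEC is known from cells of the macrophage lineage. RNA levels do not show where these proteins are in the cell or whether they are phosphorylated.

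The labelled groups were checked against their transduced gene and against cell type markers. Nras stood at 348 to 479 FPKM in NRASG12D cells and 245 to 701 FPKM in NUP98-NSD1+NRASG12D cells, against 47.7 to 51.2 FPKM in NUP98-NSD1 cells. The fusion showed less clearly in its partner genes. Nup98 was at 9.12 to 11.1 FPKM in NRASG12D cells, 18.2 to 19.0 FPKM in NUP98-NSD1 cells and 11.9 to 20.2 FPKM with both oncogenes, and the ranges of Nsd1 overlapped among all groups, at 9.98 to 16.2 FPKM over the 9 libraries. The summed FPKM of 11 mast cell markers, leaving out Cpa3, which is listed at 0 in every NRASG12D library, was between 36210 and 38350 in NRASG12D libraries. It was between 15700 and 20970 in NUP98-NSD1 libraries and between 505 and 2903 where both oncogenes were present. The size of the gap between the first 2 groups depends on Cpa3, which was at 12560 to 14380 FPKM in NUP98-NSD1 cells. Other mast cell genes were high in the NRASG12D libraries, with Cma1 at 12710 to 16010 and Fcer1a at 3538 to 4435 FPKM. Whether the 0 of Cpa3 there is a true level or a failed estimate was not tested. With Cpa3 added, and its 0 taken as listed, the sum was 29120 to 35350 FPKM in NUP98-NSD1 libraries and 785 to 4724 FPKM with both oncogenes. The sum of 13 neutrophil markers had the opposite order, with at most 40.9 FPKM in NRASG12D libraries, 1868 to 6315 FPKM in NUP98-NSD1 libraries and 9428 to 20250 FPKM with both. So had that of 13 monocyte and macrophage markers, with at most 28.5, then 557 to 1117, then 2232 to 5060 FPKM. In NRASG12D cells 10 of the 12 mast cell markers had a mean of at least 1 FPKM, as did 6 of 13 neutrophil and 2 of 13 monocyte and macrophage markers, and Ltf, Camp and Retnlg were listed at 0. The sum of 6 basophil markers had neither order. It was highest in NUP98-NSD1 libraries, at 894 to 1644 FPKM, against 456.7 to 495.5 in NRASG12D libraries and 59.6 to 516.5 FPKM with both oncogenes. The groups thus differ in cell type, and in these bulk libraries fewer cells of a type and less RNA per cell cannot be told apart. The estimated depth lay between 22550000 and 35350000 fragments.

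Tfec (ENSMUSG00000029553.10) lies on the minus strand of chromosome 6, at chr6:16833373-16898441 of GRCm38. The 250 bases before its RefSeq start on GRCm38.p6, chr6:16898442-16898691 on the minus strand, are shown because of the 4 genes this one differed most between the groups. Capitals mark AGGAAG or its reverse complement, a core read by ETS factors such as PU.1, and this motif was chosen after the letters had been seen:
Tfec upstream: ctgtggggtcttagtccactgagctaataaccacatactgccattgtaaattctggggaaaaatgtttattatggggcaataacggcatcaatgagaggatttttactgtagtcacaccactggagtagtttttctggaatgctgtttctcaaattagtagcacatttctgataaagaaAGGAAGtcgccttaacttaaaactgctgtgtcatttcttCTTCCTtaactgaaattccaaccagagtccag
A further match lies in the 50 bases after the start. AGGAAG was found on either strand in 35.4% of the 32851 promoter windows of the same table, which reach from 250 bases before to 50 after a start. The E-box letters CACGTG and CATGTG, searched on both strands, were absent from the Tfec window and from the 8 windows listed for Mitf, Tfeb and Tfe3. CACGTG occurs in 7.15% of all windows and CATGTG in 14.2%.

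Tfec RNA was close to absent in NRASG12D cells. Its FPKM there was 0.0264, 0.0263 and 0.101 in replicates 1, 2 and 3, which is 2.15, 3.15 and 7.69 estimated fragments if the reads came from its longest transcript of 3384 bp. The level given by 3 fragments was 0.0368, 0.0251 and 0.0393 FPKM in these libraries, so replicate 1 lay below it. In NUP98-NSD1 cells Tfec was at 35.4, 33.3 and 9.77 FPKM, and in NUP98-NSD1+NRASG12D cells at 52.2, 41.2 and 42.5 FPKM. Replicate 3 stood apart from the other NUP98-NSD1 libraries, and the 3 groups did not overlap. The means were 0.0512 ± 0.0430, 26.1 ± 14.2 and 45.3 ± 6.01 FPKM (SD, n = 3). From the 13 fragments estimated over the NRASG12D libraries, Tfec was 558-fold higher in NUP98-NSD1 cells and 968-fold higher in NUP98-NSD1+NRASG12D cells. These ratios describe the rise for which Tfec was chosen and rest on very few fragments. If the reads came from its shortest transcript of 572 bp, the NRASG12D libraries held 0.364, 0.532 and 1.3 estimated fragments. On the scale of log2(FPKM + 1), where low values are compressed, the differences were 4.50 and 5.45. In NRASG12D cells Tfec had a median rank at the 2.49 percentile of tested genes, and in the other groups at the 72.6 and 78.9 percentiles.

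Mitf (ENSMUSG00000035158.15, chr6:97807052-98021349, plus strand) showed the opposite order of groups. Its FPKM was 29.8, 33.1 and 30.6 in NRASG12D cells, 15.1, 14.5 and 17.6 in NUP98-NSD1 cells, and 4.13, 12.3 and 6.02 in NUP98-NSD1+NRASG12D cells. The groups did not overlap, and the spread was widest with both oncogenes, where replicate 2 was highest. Mitf fell by 0.95 on the log2 scale in NUP98-NSD1 against NRASG12D cells (SE 0.1, adjusted p = 0.000883, limma over all tested genes) and by 2.04 in NUP98-NSD1+NRASG12D against NRASG12D cells (SE 0.334, adjusted p = 0.00368). Both falls passed the threshold under each of the 8 other settings and without any single library. These comparisons share the NRASG12D libraries. A pseudogene on the other strand, Gm15531, lies within the gene but on no Mitf exon.

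Tfeb (ENSMUSG00000023990.18, chr17:47737030-47792419, plus strand) had the order of groups seen for Tfec at a lower level. It was at 0.687, 0.306 and 0.148 FPKM in NRASG12D cells, at 5.20, 4.67 and 3.15 FPKM in NUP98-NSD1 cells, and at 8.89, 7.32 and 9.73 FPKM in NUP98-NSD1+NRASG12D cells. The 3 groups did not overlap, and every NRASG12D library lay below 1 FPKM. Its log2 differences were 1.95 and 2.82 in NUP98-NSD1 and NUP98-NSD1+NRASG12D against NRASG12D cells. Tfeb passed the filter on low values only through the groups where it is high. Its SE (0.216 and 0.2) and adjusted p (0.00858 and 0.00185) are therefore taken from the limma fit with no such filter. The group means were 4.34 ± 1.07 and 8.65 ± 1.22 FPKM against 0.380 ± 0.277 FPKM (SD, n = 3).

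Tfe3 (ENSMUSG00000000134.17, chrX:7762560-7775202, plus strand) varied least. Its FPKM was 17.7, 18.2 and 17.9 in NRASG12D cells, 22.2, 19.5 and 19.4 in NUP98-NSD1 cells, and 24.9, 35.1 and 26.6 in NUP98-NSD1+NRASG12D cells. The ranges did not overlap, although the highest NRASG12D and the lowest NUP98-NSD1 library lay close together. In NUP98-NSD1 against NRASG12D cells the difference was 0.17 on the log2 scale (SE 0.0870, adjusted p = 0.133, limma), and it turned to -0.12 after median-ratio scaling and to -0.15 after quantile normalization. In NUP98-NSD1+NRASG12D against NRASG12D cells Tfe3 rose by 0.64 (SE 0.167, adjusted p = 0.0228), a call that was lost after median-ratio scaling (0.41, adjusted p = 0.154) and without any 1 of the NRASG12D libraries (highest adjusted p = 0.0877).

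**Figure D1:**
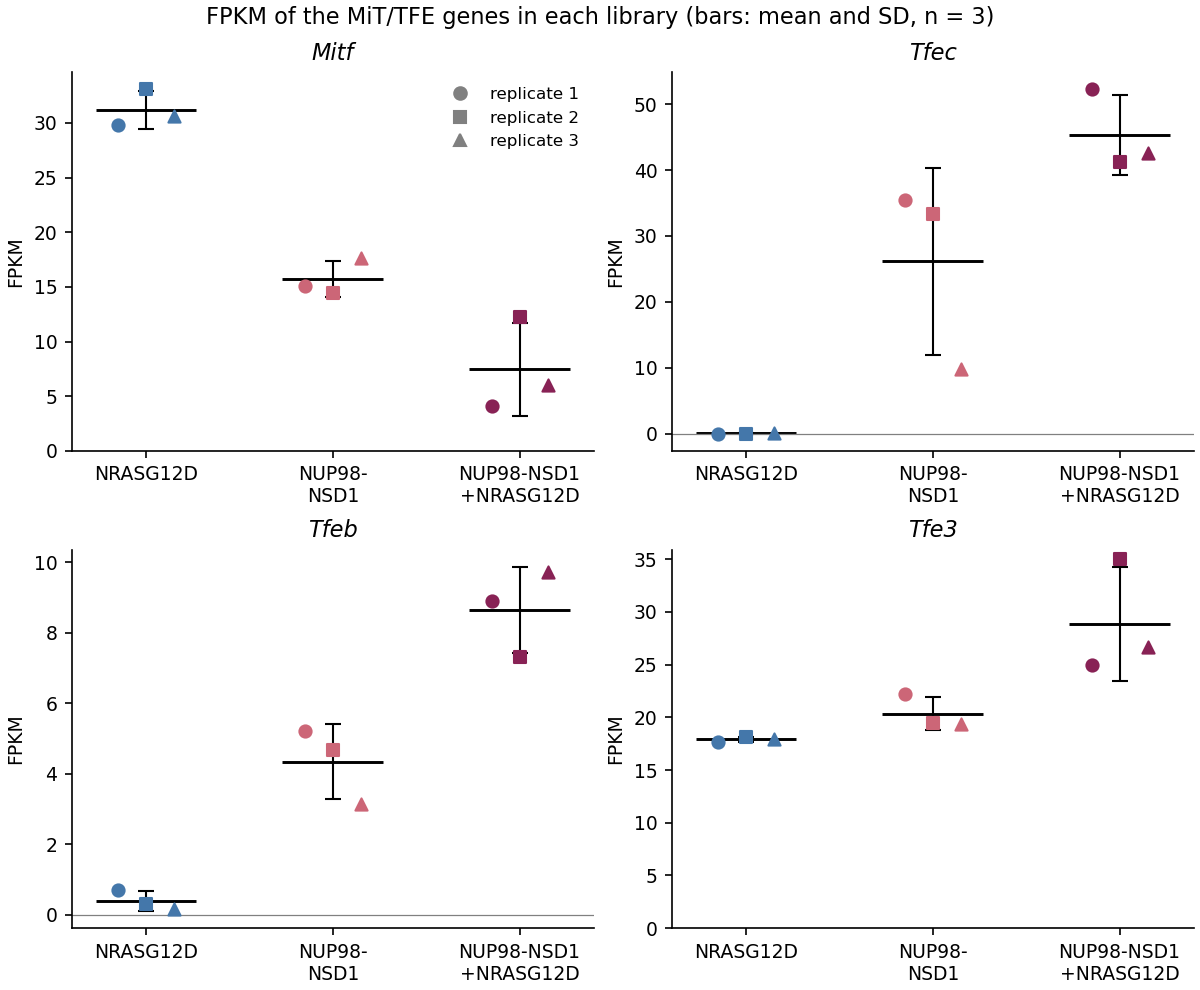
FPKM (linear axes) of Mitf, Tfec, Tfeb and Tfe3 in each of the 9 libraries, with marker shapes for the replicate numbers, horizontal bars for the group mean and vertical bars for the SD (n = 3). Tfec is near 0 in the 3 NRASG12D libraries and at 9.77 to 52.2 FPKM in the other 6, while Mitf has its highest value, 33.1 FPKM, in an NRASG12D library and its lowest, 4.13 FPKM, where both oncogenes are present.

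The shift in the whole data set bears on the small differences. The median log2 difference of all tested genes was 0.27 in NUP98-NSD1 and 0.23 in NUP98-NSD1+NRASG12D against NRASG12D cells. Relative to these medians, Mitf stood at -1.22 and -2.27, Tfeb at 1.68 and 2.59, and Tfe3 at -0.10 and 0.42. The direction of Mitf and Tfeb was the same under each scaling tried. Calls were common among all tested genes. In NUP98-NSD1 against NRASG12D cells 42.2% were called higher and 9.98% lower, and in NUP98-NSD1+NRASG12D against NRASG12D cells 24.2% were called higher and 14.1% lower. After median-ratio scaling the share of calls that were higher went from 80.9% to 52.3% and from 63.1% to 49.7% in these comparisons. Groups that do not overlap, as those of all 4 members, were common, at 64.2% and 58.6% of all tested genes.

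The addition of NRASG12D to NUP98-NSD1 was addressed by comparing these 2 groups directly. Tfec was higher by 0.96 on the log2 scale (SE 0.460, adjusted p = 0.265, limma), Tfeb by 0.87 (SE 0.213, adjusted p = 0.0531) and Tfe3 by 0.47 (SE 0.176, adjusted p = 0.155), and Mitf was lower by 1.09 (-1.09, SE 0.343, adjusted p = 0.102). Of the 4 members, 0 passed the adjusted threshold and 3 had an unadjusted p under 0.05, all but Tfec. Among all genes 2.3% were called higher and 6.31% lower here, and 31.4% had groups that did not overlap, as all 4 members did. The exact permutation test gave p = 0.1 for each member, the smallest that 3 libraries against 3 allow. With no filter on low values the limma fit gave Tfeb an adjusted p of 0.152. Tfeb passed the threshold after median-ratio scaling (0.94, adjusted p = 0.0408), and Mitf did without replicate 2 of NUP98-NSD1+NRASG12D cells (-1.47, adjusted p = 0.0157). Without NUP98-NSD1 replicate 3 the Tfec difference was 0.38 (adjusted p = 0.395). This comparison shares a group with each of the other two.

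**Figure D2:**
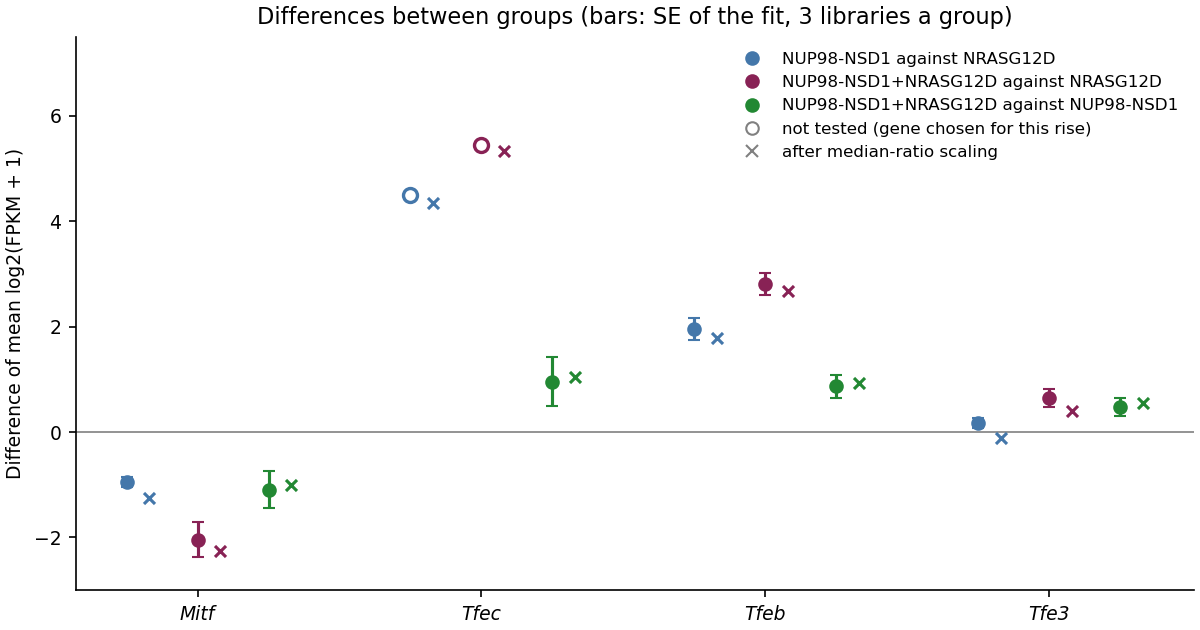
Difference between group means of log2(FPKM + 1) for each gene (linear axis), with circles for the values as deposited, bars for the SE of the limma fit, open circles for Tfec against NRASG12D cells, which was not tested, and crosses for median-ratio scaling. Mitf lies below 0 and Tfec and Tfeb above 0 in the 3 comparisons under both scalings, and Tfe3 crosses 0 in NUP98-NSD1 against NRASG12D cells.

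FPKM are scaled to transcript length, so the 4 genes can also be set beside each other within a library. In NRASG12D cells Mitf held 62.9% ± 1.17 of the summed family FPKM and Tfe3 36.2% ± 0.866 (SD, n = 3), with 0.775% for Tfeb and 0.104% for Tfec. In NUP98-NSD1 cells Tfec held 37.1% ± 15.2, Tfe3 31.5% ± 6.45, Mitf 24.9% ± 9.02 and Tfeb 6.49% ± 0.190. In NUP98-NSD1+NRASG12D cells Tfec held 50.3% ± 7.45, Tfe3 31.9% ± 4.52, Tfeb 9.67% ± 1.94 and Mitf 8.16% ± 4.21. The leading gene was thus Mitf in each NRASG12D library and Tfec in each NUP98-NSD1+NRASG12D library. In NUP98-NSD1 cells the FPKM ranges of Tfec, Tfe3 and Mitf could not be fully ordered, since Tfec led in replicates 1 and 2 and was below both in replicate 3. With both oncogenes the ranges of Mitf and Tfeb overlapped. The ratio of Tfec to Mitf FPKM was at most 0.00329 in NRASG12D cells, 2.35, 2.30 and 0.555 in NUP98-NSD1 cells, and 12.6, 3.36 and 7.07 in NUP98-NSD1+NRASG12D cells. The summed FPKM of the 4 genes was 49.5 ± 1.84, 66.6 ± 14.7 and 90.3 ± 5.48 in the 3 groups.

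**Figure D3:**
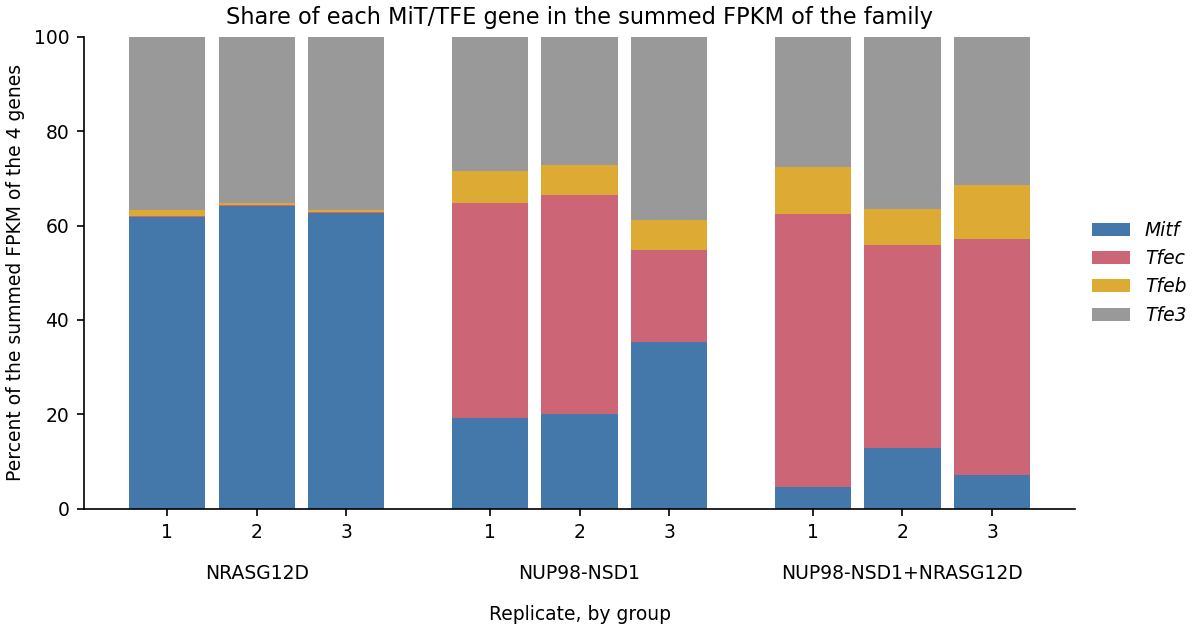
Percent of the summed FPKM of the 4 genes held by each gene (linear axis from 0 to 100), as 1 stacked bar per library, grouped by NRASG12D, NUP98-NSD1 and NUP98-NSD1+NRASG12D. Mitf and Tfe3 fill the NRASG12D bars, and Tfec appears in every bar of the other groups, with its smallest share there in NUP98-NSD1 replicate 3.

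The libraries that stood apart in Mitf or Tfec also stood apart in the mast cell and neutrophil sums. Among NUP98-NSD1 libraries, replicate 3 had the lowest Tfec (9.77 FPKM), the highest Mitf (17.6 FPKM), the highest mast cell sum (20970 FPKM over 11 markers against 15700 and 16670) and the lowest neutrophil sum (1868 FPKM against 6315 and 5909). Among NUP98-NSD1+NRASG12D libraries, replicate 2 had the highest Mitf (12.3 FPKM), the highest mast cell sum (2903 FPKM against 674 and 505) and the lowest neutrophil sum (9428 FPKM). The order of the other libraries with both oncogenes was not the same, since replicate 1 had the highest Tfec (52.2 FPKM) and replicate 3 the highest neutrophil sum (20250 FPKM), and replicate 1 had less Mitf than replicate 3 (4.13 against 6.02 FPKM) with a higher mast cell sum. The part of the cell mixture in the levels of the family was not tested. Without NUP98-NSD1 replicate 3 the difference from NRASG12D cells was 5.07 for Tfec and -1.03 for Mitf on the log2 scale.

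**Figure D4:**
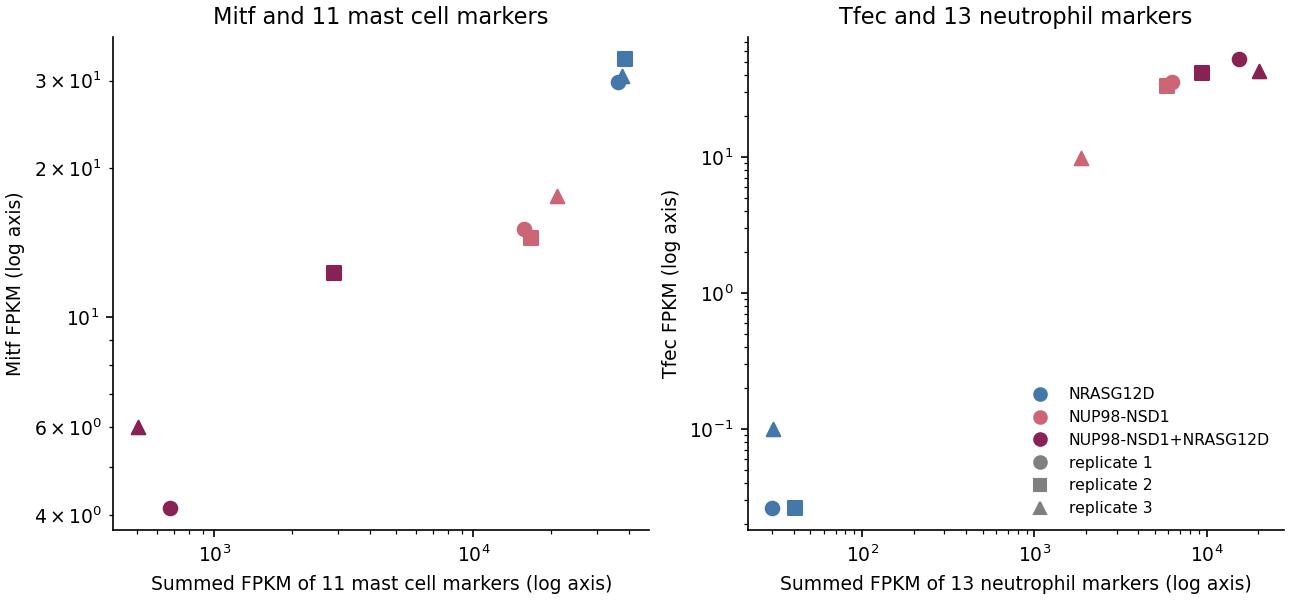
FPKM of Mitf against the summed FPKM of 11 mast cell markers (Cpa3 left out) and FPKM of Tfec against the summed FPKM of 13 neutrophil markers, both on log axes, with 1 point per library, colours for groups and shapes for replicate numbers. NUP98-NSD1 replicate 3 and NUP98-NSD1+NRASG12D replicate 2 lie above their groups in both Mitf and mast cell sum.

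The tested genes whose pattern was most like each member were listed by Pearson's r of log2(FPKM + 1) over the 9 libraries, among 7605 genes whose highest and lowest library differ by at least 1. The libraries share groups and cell mixtures, so r is a description. Tfec was most like Cebpe (r = 0.998), a transcription factor of granulocyte maturation, followed by Clec12a, Rgcc, Sema4a and Il15ra. Cebpe was at 82.7, 64.0 and 15.9 FPKM in NUP98-NSD1 cells, so its replicate 3 was low as it was for Tfec. Tfeb was most like Atp8b4 (r = 0.997), a phospholipid flippase, and then AB124611, F13a1, Slc16a10 and Adap1. Mitf was most like Rabep1 (r = 0.993), which acts in endosome fusion, and then Fbxw7, Cyb5a, Tnfsf8 and Ezh1. Tfe3 was most like Npc2 (r = 0.990), a lysosomal cholesterol carrier, and then Rnase4, Vim, Fcrls and Pla2g15. Each of these genes was highest in NUP98-NSD1+NRASG12D replicate 2, as Tfe3 was. Between members, r was 0.978 for Tfec and Tfeb and -0.862 for Tfec and Mitf.

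Most of the listed genes known to depend on Mitf in mast cells fell when both oncogenes were present. Of 14 tested genes of this list, 8 fell and 4 rose in NUP98-NSD1 against NRASG12D cells, 12 fell and 2 rose in NUP98-NSD1+NRASG12D against NRASG12D cells, and 11 fell in NUP98-NSD1+NRASG12D against NUP98-NSD1 cells. Their median log2 differences were -0.67, -4.52 and -3.87, beside 0.27, 0.23 and -0.06 for all tested genes. Of all tested genes 9.98%, 14.1% and 6.31% were called lower in these comparisons, and 42.2%, 24.2% and 2.3% higher. Many listed genes are also mast cell markers, so the counts of the list repeat the marker sums above in part. Kit, the stem cell factor receptor, was at 982, 1119 and 1049 FPKM in NRASG12D cells, at 387, 382 and 561 FPKM in NUP98-NSD1 cells, and at 36.0, 70.7 and 8.27 FPKM with both oncogenes. Its groups did not overlap, and it fell by 1.26, 5.17 and 3.91 on the log2 scale in the 3 comparisons (highest adjusted p = 0.0211, limma). Tph1, the serotonin-producing hydroxylase, fell by 1.24, 5.90 and 4.66, the chymase Cma1 by 1.31, 5.86 and 4.55, and the tryptase Tpsb2 by 1.23, 4.55 and 3.32.

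Cadm1, a mast cell adhesion molecule that Mitf is known to activate, differed most between NRASG12D and NUP98-NSD1 cells among the mast cell genes that fell. It was at 117, 90.1 and 103 FPKM in NRASG12D cells, at 12.1, 9.64 and 13.4 FPKM in NUP98-NSD1 cells, and at 1.05, 5.71 and 2.47 FPKM in NUP98-NSD1+NRASG12D cells. Its log2 differences were -3.04 (adjusted p = 4.79e-05), -4.84 (adjusted p = 0.000253) and -1.8 (adjusted p = 0.0450) in the limma fits, and the third call was lost after median-ratio scaling (-1.72, adjusted p = 0.0817). The high-affinity IgE receptor chain Fcer1a differed by -0.43 in NUP98-NSD1 against NRASG12D cells (adjusted p = 0.0530) and fell by 5.69 and 5.26 in the other comparisons. Gzmb, a serine protease, fell by 0.66, 5.51 and 4.85. The 4 genes that rose in NUP98-NSD1 against NRASG12D cells were Hdc (4.31), the histamine-producing decarboxylase, the protease genes Mcpt4 (2.68) and Mcpt2 (2.01), and Itga4 (2.44), an integrin chain. Hdc and Itga4 also rose in NUP98-NSD1+NRASG12D against NRASG12D cells, by 3.21 and 2.11, a call that Hdc lost after median-ratio scaling (adjusted p = 0.0540). Mcpt2 was named after its values were seen. Mcpt4 was at 101, 33.2 and 91.1 FPKM in NRASG12D cells, at 415, 415 and 491 FPKM in NUP98-NSD1 cells, and at 5.25, 34.1 and 7.46 FPKM with both oncogenes. It thus fell by 2.48 and 5.16 in the comparisons of NUP98-NSD1+NRASG12D cells. The count of 11 was 4 without NUP98-NSD1 replicate 3, 5 without replicate 1 or 2 of that group, 6 without NUP98-NSD1+NRASG12D replicate 3 and 1 when no filter on low values was set. The count of 8 was 1 when all 9 libraries were fitted together.

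Partners and regulators of Mitf were called in both directions, as genes were in the whole data set. Of 10 tested genes, 4 rose (40%) and 3 fell (30%) in NUP98-NSD1 against NRASG12D cells, beside 42.2% and 9.98% of all tested genes. In NUP98-NSD1+NRASG12D against NRASG12D cells 3 rose (30%) and 5 fell (50%), beside 24.2% and 14.1%. Against NUP98-NSD1 cells, 4 fell with both oncogenes (40%, beside 6.31% of all). This count was 1 to 4 without single libraries and 0 to 5 under the other settings. The 4 were Gata2, Kit, Fhl2 and Runx1. Gata2 and Kit are also mast cell markers, so the count repeats the marker sums above in part. After median-ratio scaling 2 rose and 3 fell in the first comparison, and 1 rose and 5 fell in the second. Spi1, which encodes PU.1, was at 76.4, 81.3 and 72.6 FPKM in NRASG12D cells, at 192, 157 and 108 FPKM in NUP98-NSD1 cells, and at 269, 235 and 274 FPKM with both oncogenes. It rose by 0.94 (adjusted p = 0.00745, limma) and 1.74 (adjusted p = 0.000248) against NRASG12D cells. Gata2, a mast cell and progenitor factor, was at 383 to 492, 304 to 480 and 6.47 to 59.5 FPKM in the 3 groups. Gata2 fell, with log2 differences of -4.26 and -4.02, in NUP98-NSD1+NRASG12D against NRASG12D and against NUP98-NSD1 cells. The LIM-domain cofactor Fhl2 fell by 1.03, 3.32 and 2.29 in the 3 comparisons. Runx1, a core blood transcription factor, fell by 1.08 and 1.23 with both oncogenes. Kars, a lysyl-tRNA synthetase that takes part in Mitf activation in mast cells, rose by 0.73 and 0.72 against NRASG12D cells, and its second call was lost after median-ratio scaling (0.48, adjusted p = 0.0610).

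Of 10 tested genes listed for MiT/TFE factors in macrophages and osteoclasts, 6 rose and 1 fell against NRASG12D cells in each comparison. The 6 passed the filter on low values only through the groups where they are high, so their rises are given as a description. Under the other settings tried, 4 to 6 rose. These counts stand beside the 42.2% and 24.2% of all tested genes that were called higher, and the 9.98% and 14.1% called lower. The medians were 0.89 and 1.84, and after median-ratio scaling the first comparison had 6 that rose and 3 that fell. Gpnmb, a membrane glycoprotein of macrophages, was at 0.117, 2.63 and 0.282 FPKM in NRASG12D cells, at 118, 84.1 and 93.1 FPKM in NUP98-NSD1 cells, and at 196, 2210 and 1481 FPKM in NUP98-NSD1+NRASG12D cells. It rose by 5.83 and 8.96 on the log2 scale. Csf3r, the G-CSF receptor and a known Tfec target in macrophages, was listed at 0 in NRASG12D replicates 1 and 3 and was at 0.0788 FPKM in replicate 2. It was at 20.3, 15.7 and 9.50 FPKM in NUP98-NSD1 cells and at 48.5, 32.3 and 12.7 FPKM in NUP98-NSD1+NRASG12D cells. Replicate 3 was the lowest library of both groups, and Csf3r rose by 3.92 and 4.78. The M-CSF receptor Csf1r rose by 4.58 and 6.00, the receptor Trem2 by 4.25 and 6.40, the osteoclast phosphatase Acp5 by 0.78 and 0.86, and the osteoclast protease Ctsk by 0.99 and 2.82.

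With both oncogenes against NUP98-NSD1 alone, the only call of the macrophage and osteoclast list was Nfatc1, the osteoclast transcription factor, which fell by 0.73 and lost its call after median-ratio scaling (-0.65, adjusted p = 0.0937). Nfatc1 was also the gene of the list that fell against NRASG12D cells, by 0.29 and 1.03. By limma 0 of the list rose, with 4 higher at an unadjusted p under 0.05. Of all tested genes 2.3% were called higher and 6.31% lower between the groups with NUP98-NSD1. Csf1r and Csf3r are also among the monocyte and neutrophil markers, whose sums were higher in the same libraries, and the part of cell type in these values was not tested. Osteoclast markers summed to 0.801 to 0.896, 3.61 to 5.09 and 5.66 to 35.9 FPKM in the 3 groups, and Calcr was listed at 0 in both groups with NUP98-NSD1.

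The CLEAR motif TCACGTGA, read the same on both strands, was found in 0.974% of the 32851 promoter windows. It was in 16.7% of the windows matched for the list of lysosomal hydrolases and membrane proteins (6 genes), in 15.8% of those for V-ATPase subunits (3 genes) and in 9.09% of those for autophagy genes (2 genes). The lysosomal and autophagy lists were drawn from the CLEAR network, which is named for this motif, so their shares are no test of it. TCACGTGA holds CACGTG, so the matches of both overlap. Examples are shown from GRCm38.p6 because TFEB and TFE3 are known to act through this motif. Each has 6 bases on either side of the motif in capitals, read along the gene:
Ctsd (chr7:142387913-142387932, minus strand): cgcgtcTCACGTGAcccgtt
Mcoln1 (chr8:3500467-3500486, plus strand): ccccgcTCACGTGAccgcgg
Atp6v1a (chr16:44139378-44139397, minus strand): tttaaaTCACGTGAtaggct
Vps33a (chr5:123573031-123573050, minus strand): ctcggaTCACGTGAacgtcc
Of the 11 genes with the motif, 1 rose and 1 fell in NUP98-NSD1 against NRASG12D cells, and 3 rose in NUP98-NSD1+NRASG12D against NRASG12D cells. Their median log2 differences were 0.10 and 0.33. Of all tested genes 42.2% and 24.2% were called higher and 9.98% and 14.1% lower in these comparisons. Atp6v1a, a catalytic V-ATPase subunit, rose by 0.29 and 1.39, of which the first became -0.02 after median-ratio scaling, and Ctsd, the protease cathepsin D, fell by 0.67 in NUP98-NSD1 against NRASG12D cells. Mcoln1, a lysosomal calcium channel, was at 36.9 to 49.2, 34.9 to 39.4 and 27.7 to 49.6 FPKM in the 3 groups, and its log2 difference in NUP98-NSD1 against NRASG12D cells was -0.18 (adjusted p = 0.244), which became a called fall after median-ratio scaling (-0.48, adjusted p = 0.0130). The rise of Vps33a by 0.46 in NUP98-NSD1+NRASG12D against NRASG12D cells was lost after that scaling (0.22, adjusted p = 0.319). Ctsd and Vps33a were named for their motif.

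Lysosomal genes changed in both directions. Of 40 tested hydrolases and membrane proteins, 11 rose and 10 fell in NUP98-NSD1 against NRASG12D cells, 13 rose and 6 fell in NUP98-NSD1+NRASG12D against NRASG12D cells, and 4 rose and 2 fell between the groups with NUP98-NSD1. The list thus had 27.5%, 32.5% and 10% called higher, beside 42.2%, 24.2% and 2.3% of all tested genes. Called lower were 25%, 15% and 5%, beside 9.98%, 14.1% and 6.31%. The medians of 0.02, 0.20 and 0.32 stand beside 0.27, 0.23 and -0.06 for all tested genes. After median-ratio scaling the counts of the first comparison were 7 and 20. Without single libraries the 4 that rose between the groups with NUP98-NSD1 ranged from 0 to 18. Lamp1, a major lysosomal membrane protein, was at 19.0, 41.6 and 36.6 FPKM in NRASG12D cells, at 54.9, 60.4 and 58.0 FPKM in NUP98-NSD1 cells, and at 102, 163 and 111 FPKM with both oncogenes. It rose in the 3 comparisons, by 0.89, 1.96 and 1.07 on the log2 scale (highest adjusted p = 0.0268, limma), and the first call was lost after median-ratio scaling (0.58, adjusted p = 0.113). The protease Ctsl was below 1 FPKM in each NRASG12D library, at 42.7 to 63.6 FPKM in NUP98-NSD1 cells and at 126, 811 and 236 FPKM in NUP98-NSD1+NRASG12D cells. Ctsl rose by 5.29 and 7.76 against NRASG12D cells. Since Ctsl passed the filter on low values only through the groups where it is high, these rises are given as a description.

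Other lysosomal genes that rose against NRASG12D cells in both comparisons were the serine carboxypeptidase Scpep1 (3.27 and 5.21), the cathepsin Ctsz (2.05 and 3.32), the sulfatase Arsb (2.11 and 3.12) and Psap (1.65 and 3.26), the precursor of the saposins. Scpep1 and Arsb were below 1 FPKM in each NRASG12D library and passed the filter only through the other groups. Their rises over NRASG12D cells are therefore given as a description. Scpep1 and Psap also rose between the groups with NUP98-NSD1, by 1.95 and 1.61. Cd63, a tetraspanin of lysosomes and mast cell granules, was at 3124 to 3540, 1752 to 2424 and 389 to 883 FPKM in the 3 groups and fell by 0.74, 2.39 and 1.65. Between the groups with NUP98-NSD1 the calls of Scpep1, Psap and Cd63 were lost after median-ratio scaling (adjusted p = 0.0620, 0.0580 and 0.0773). The cathepsin Ctsf fell by 0.43, 2.12 and 1.69. Some of these genes share stretches of 50 bases with other transcripts, which FPKM may divide: 38.5% of the stretches of Arsb, 26.3% of Ctsl, 14.3% of Csf1r, 11.1% of Cd63 and 10.7% of Csf3r. The 4 family members shared none.

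V-ATPase subunits, which build the proton pump that acidifies lysosomes, had 6 genes that rose and 4 that fell of 19 tested in NUP98-NSD1 against NRASG12D cells. In NUP98-NSD1+NRASG12D against NRASG12D cells 7 rose and 2 fell. Between the groups with NUP98-NSD1 1 rose (5.26%, beside 2.3% of all tested genes, and 0 to 8 without single libraries). After median-ratio scaling these counts were 3 and 9, 5 and 2, and 0. Tcirg1, the subunit used by osteoclasts, rose by 1.42 and 2.47 against NRASG12D cells, and Atp6v1b2 by 0.85 and 1.96. Atp6v1b2 was also the gene that rose with both oncogenes against NUP98-NSD1 cells, by 1.11 (adjusted p = 0.0496, and 0.0673 after median-ratio scaling). Atp6v0c rose by 0.61 (0.31 with its call lost after median-ratio scaling) and 1.62, and Atp6v1g2 fell by 1.03 and 1.13. Of 23 autophagy genes, 2 rose and 6 fell in NUP98-NSD1 and 3 rose and 5 fell in NUP98-NSD1+NRASG12D against NRASG12D cells. After median-ratio scaling these were 1 and 13, and 1 and 5. For both lists the shares called higher lay beside 42.2% and 24.2% of all tested genes, and those called lower beside 9.98% and 14.1%.

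Sqstm1, the autophagy receptor p62 and a known TFEB target, was at 754, 748 and 841 FPKM in NRASG12D cells, at 317, 308 and 407 FPKM in NUP98-NSD1 cells, and at 114, 202 and 252 FPKM in NUP98-NSD1+NRASG12D cells. Its groups did not overlap, and it fell by 1.19 (adjusted p = 0.000886, limma) and 2.11 (adjusted p = 0.00197) against NRASG12D cells. The order of its levels was thus the reverse of that of Tfeb. Gabarapl1, of the ATG8 family, fell by 0.49, 1.16 and 0.67 in the 3 comparisons. The autophagy receptors Calcoco1 and Optn fell by 0.64 and 0.51 in NUP98-NSD1 and by 1.11 and 1.61 in NUP98-NSD1+NRASG12D against NRASG12D cells. Atg9b, a lipid scramblase of the autophagy pathway, rose by 1.37, 2.68 and 1.31, from levels of at most 1.15 FPKM in NRASG12D cells. It passed the filter on low values only through the groups where it is high. Sequence shared with other genes made up 23.1% of the 50-base stretches of Gabarapl1, 15.5% of Sqstm1 and 6.14% of Atg9b.

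Of the regulators that hold MiT/TFE proteins in the cytoplasm or release them, few were called higher. Of 35 tested genes, 6 rose (17.1%) and 4 fell (11.4%) in NUP98-NSD1 against NRASG12D cells, beside 42.2% and 9.98% of all tested genes. In NUP98-NSD1+NRASG12D against NRASG12D cells 2 rose (5.71%) and 5 fell (14.3%), beside 24.2% and 14.1%. Between the groups with NUP98-NSD1, 2 fell (5.71%, beside 6.31%). Without single libraries the first count ranged from 2 to 10. After median-ratio scaling these became 1 and 12, 1 and 9, and 1 that fell. Map4k3, a kinase of the amino acid response upstream of mTORC1, was at 4.30, 4.51 and 4.76 FPKM in NRASG12D cells, at 1.98, 1.56 and 2.71 FPKM in NUP98-NSD1 cells, and at 0.192, 0.845 and 0.298 FPKM in NUP98-NSD1+NRASG12D cells. It fell by 0.86, 1.96 and 1.10 in the 3 comparisons (highest adjusted p = 0.0359, limma), and the last call was lost after median-ratio scaling (-1.05, adjusted p = 0.0649). The lysosomal amino acid sensor Slc38a9 fell by 0.73 and 0.98 against NRASG12D cells. The Rag GTPase gene Rragc fell by 0.64 in NUP98-NSD1 against NRASG12D cells, and Rragb fell by 0.81 and 0.94 with both oncogenes.

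Xpo1, the exportin that carries these factors out of the nucleus, rose by 0.88 and 0.94 against NRASG12D cells, from 15.3 to 18.4 FPKM to 30.6 to 33.2 and 29.9 to 41.9 FPKM. The folliculin complex, which acts on RagC and RagD, showed mixed values. Flcn was at 37.1 to 40.0, 36.3 to 45.2 and 27.2 to 40.6 FPKM in the 3 groups and passed the test in no comparison (lowest adjusted p = 0.327), and its difference of 0.09 between NUP98-NSD1 and NRASG12D cells turned negative under the 3 other scalings. Fnip1 fell by 0.54 in NUP98-NSD1 against NRASG12D cells (adjusted p = 0.0106). Fnip2 was at 2.81, 19.2 and 9.63 FPKM in NUP98-NSD1+NRASG12D cells and between 2.85 and 3.91 FPKM in the other libraries, and it passed the test in no comparison (lowest adjusted p = 0.146). Rragd, a known target of these factors, did not pass the filter, with at most 1.77 FPKM.

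**Figure D5:**
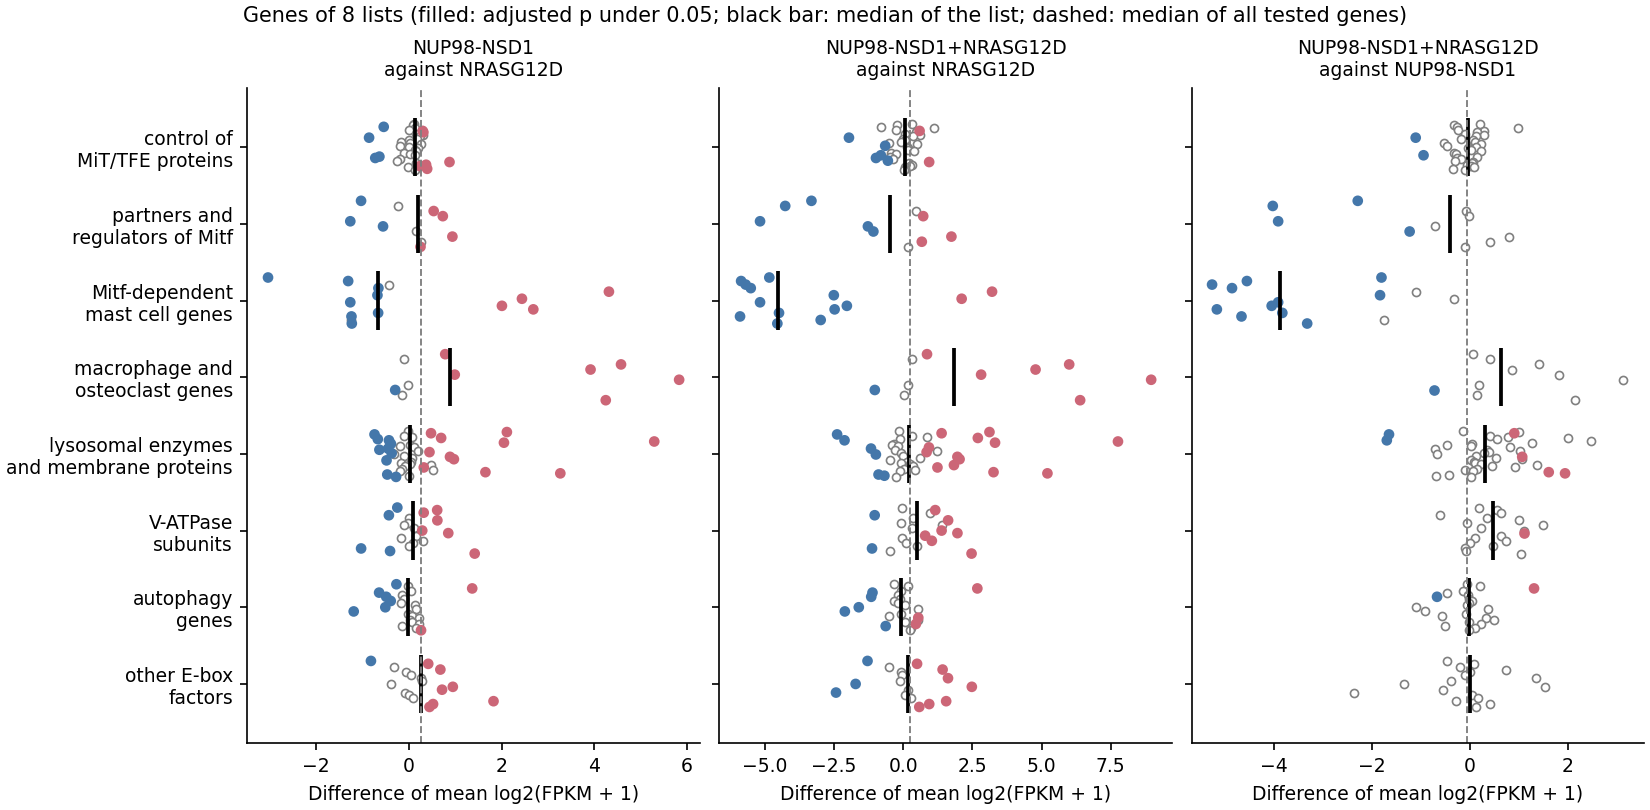
Difference between group means of log2(FPKM + 1) for the tested genes of 8 lists (linear axes with their own range in each panel), with filled points for an adjusted p under 0.05 (red higher, blue lower), open points for other genes, black bars for list medians and dashed lines for the median of all tested genes. Mast cell genes reach medians of -4.52 and -3.87 in the comparisons of NUP98-NSD1+NRASG12D cells, and the lysosomal, V-ATPase and autophagy lists spread on both sides of 0.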

How the data were processed

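RNA-seq libraries of 9 samples, 3 per group by their labels, were read as gene tables. The authors aligned paired-end reads of 50 bases to GRCm38 with STAR 2.7.2a and made the deposited FPKM with Cufflinks 2.2.1, per the submitters' processing notes and the study's methods. No scaling between libraries is given in the sources used here. Repeated lines of 1 identifier were added together. The files hold no counts, so the count test of the methods was not run. Depth was estimated by the steps between low FPKM in 3386 single-transcript genes longer than 2500 bp, where 76.0% to 79.2% of low values were within 0.1 of a whole step. The floor of 3 fragments covers counting error only, since reads carried no molecular identifiers.

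Pairs of groups were fitted on their 6 libraries with limma 3.58.1 (lmFit, eBayes with trend, R 4.3.3) on log2(FPKM + 1) over 13493 genes. P-values were adjusted by Benjamini-Hochberg over all of them, with a threshold of 0.05, and exact permutation tests were two-sided. For listed genes that passed the filter on low values only through the groups where they are high, a call is a description. The fit was tested on simulated data. Other pseudocounts, filters, scalings, models and fits without single libraries were tried. The members and gene lists were chosen with earlier results of these data known. Named are the members, up to 4 called genes per list and comparison with the largest differences among those whose groups did not overlap, genes with a known link to a member, and the 5 genes most like each member. Symbols of the lists that were not matched (Galns, Tmem55b, Atp6v0a3, Map1lc3b and Mc1r) were not analysed here. Promoter windows are from RefSeq on GRCm38.p6, of which 3 belong to Mitf, 1 to Tfec, 3 to Tfeb and 2 to Tfe3, and transcripts for shared sequence from GENCODE M21. Python 3.11.15, numpy 2.4.6, pandas 2.3.3, scipy 1.17.1 and matplotlib 3.10.9 were used.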

Additional observations from a re-analysis of the deposited data

How the results depend on the processing

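Mitf kept its direction and its call against NRASG12D cells under all alternatives. For Tfec against NRASG12D cells a pseudocount of 0.1 gave 7.27 in NUP98-NSD1 and 8.26 in NUP98-NSD1+NRASG12D cells, which follows from the lower constant added to values near 0, and quantile normalization gave 5.17 and TPM scaling 6 in the latter. Tfe3 in NUP98-NSD1 against NRASG12D cells turned to -0.15 after quantile normalization and to -0.12 after median-ratio scaling. Its rise in NUP98-NSD1+NRASG12D against NRASG12D cells lost its call with no filter (0.64), quantile normalization (0.37), median-ratio scaling (0.41) and TPM scaling (0.42), and ranged from 0.5 to 0.74 without single libraries. Between the groups with NUP98-NSD1, Mitf passed the threshold with all 9 libraries in one fit (-1.09) and with array weights (-1.02), and ranged from -1.47 to -0.79 without single libraries. Tfeb did not pass it there with no filter on low values (0.87, adjusted p = 0.152, limma). It passed after quantile normalization (0.94) and median-ratio scaling (0.94), with all 9 libraries in one fit (0.87) and with array weights (0.82). The cause was not tested for these. The number of genes called in NUP98-NSD1 against NRASG12D cells was 7036 and became 3065 with all 9 libraries in one fit. For NUP98-NSD1+NRASG12D against NRASG12D cells the number, 5173, ranged from 2941 (without NRASG12D replicate 3) to 6327 when single libraries were left out. Between the groups with NUP98-NSD1 it was 1162 and became 152 with no filter, 2251 with all 9 libraries and 3500 with array weights, and ranged from 283 (without NUP98-NSD1 replicate 3) to 2509 (without NUP98-NSD1+NRASG12D replicate 1).

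Libraries with the same replicate number did not clearly deviate together over genes (correlations of -0.177 to 0.16). A pairing with a small effect could be missed in this way, so none is excluded. With a replicate block 6864, 4531 and 801 genes were called in the 3 comparisons, and no call of a member changed. Among listed genes, Flcn in NUP98-NSD1 against NRASG12D cells turned from 0.09 to -0.22 (quantile), -0.21 (median-ratio) and -0.074 (TPM), and Fnip2 from 0.14 to -0.2 and -0.099 with the first 2 of these. Mcoln1 in NUP98-NSD1+NRASG12D against NRASG12D cells turned to 0.075 with array weights and ranged from -0.22 to 0.19 without single libraries, and from -0.047 to 0.36 against NUP98-NSD1 cells. Acp5 between the groups with NUP98-NSD1 turned to -0.21 with array weights and ranged from -0.073 to 0.29 without single libraries. None of these passed the threshold as reported. Depth limits Tfec in NRASG12D cells, where replicate 1 lay below the level of 3 fragments.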

Other observations

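Melanocyte genes that depend on the melanocyte form of MITF were near the floor. Of 11 matched genes, among them Tyr, Dct and Sox10, 0 passed the filter on low values, and the highest FPKM in any library was 1.09, for Pmel.

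Other E-box factors, most of the leucine zipper class, had shares of calls near those of all tested genes in NUP98-NSD1 against NRASG12D cells, where 7 of 17 (41.2%) rose, beside 42.2% of all, and 1 fell. In NUP98-NSD1+NRASG12D against NRASG12D cells 7 rose (41.2%, beside 24.2% of all) and 3 fell. After median-ratio scaling these counts were 4 and 3, and 4 and 4. Between the groups with NUP98-NSD1 0 were called by limma, beside 2.3% of all tested genes called higher and 6.31% lower. At an unadjusted p under 0.05, 3 were higher and 2 lower. Myc was at 163 to 179 FPKM in NRASG12D, 235 to 305 FPKM in NUP98-NSD1 and 149 to 243 FPKM in NUP98-NSD1+NRASG12D cells, and rose by 0.72 on the log2 scale in NUP98-NSD1 against NRASG12D cells. Tfap4, a MYC target that binds another E-box, rose by 1.83 and 1.55 against NRASG12D cells. The MAX partners Mxi1 and Mxd1, which oppose MYC, rose by 2.48 and 1.62 in NUP98-NSD1+NRASG12D against NRASG12D cells, where Mxd1 lost its call after median-ratio scaling (1.38, adjusted p = 0.0984), while Mycn fell by 2.43 and Mxd4 by 1.72. Bhlhe40, a transcriptional repressor, fell by 0.82 and 1.29.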
